A study of Mus musculus with 12 samples.

Results

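Gene expression was compared between Card9-/- neutrophils stimulated for 4 h by plate-bound immune complexes (IC) and Card9-/- neutrophils held on a control surface. The members are the 6 Card9-/- arrays of the 12 arrays of the series, 3 titled IC and 3 titled control, and they were chosen by these titles and paired by experiment number. Each of 3 experiments also held a wild-type control and a wild-type IC sample, so that there were 4 groups of 3 arrays, and the labels give the experiment number as the time of the sample. By label all cells carried the surface marker Ly6G and came from C57BL/6 mice. Whether the cells of an array came from a single mouse or from a pool is not stated, so that the experiment is the replicate. The p values rest on how far the differences between groups varied over these experiments, with the spread pooled over the 4 groups.

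The Card9-/- mice were homozygous for the germline Card9tm1Jrld knockout, so that in an intact mouse every cell lacked CARD9 and not the neutrophils alone. The methods name both intact mice and bone marrow chimeras as sources of neutrophils, and do not state which was used for these arrays. The wild-type C57BL/6 mice were bought from breeders according to the methods, and both genotypes were used as adults of both sexes. Neutrophils were taken from the bone marrow of the hind legs by hypotonic lysis and a Percoll gradient, which enriches but does not sort them. Adherent and nonadherent cells were lysed together. The antigen on the plate (human serum albumin or lactoferrin) and the coating of the control surface are not stated for these arrays. From each sample 150 ng of RNA was labelled and hybridized. The Affymetrix mouse gene arrays read transcript clusters, sets of probes that mostly belong to a single gene.

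Neutrophils bind IgG in immune complexes through Fcγ receptors, which signal through Src-family kinases and the tyrosine kinase Syk. In many myeloid receptors Syk and phospholipase Cγ2 lead to a scaffold of CARD9, BCL10 and MALT1, which activates the transcription factor NF-κB. Other branches downstream of Syk reach the MAP kinases, calcium and phosphoinositide signals, the cytoskeleton and the NADPH oxidase, and transcription factors of the AP-1 and EGR families are well-known early targets of MAP kinases. The response of Card9-/- cells to IC shows which transcript differences were measured between the surfaces when CARD9 was missing.

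The identity of the cells was read first. The Card9 cluster had a log2 signal of 5.56 to 6.42 on the 6 Card9-/- arrays and of 8.08 to 8.75 on the 6 wild-type arrays, without overlap. Whether its probes lie inside the deleted part of the gene is not known here. The neutrophil genes Ly6g (12.3 to 12.5), Csf3r (10.9 to 12.1), Cxcr2 (10.8 to 12.3) and S100a8 (12.4 to 12.7) were among the strongest signals on every Card9-/- array. Markers of other cells were also present, and those of B cells differed most between the arrays. The summed linear signal of 13 measured B-cell markers was 2547, 579 and 3598 on the Card9-/- control arrays of experiments 1, 2 and 3 and 2635, 615 and 6279 on the IC arrays. The sum was thus higher on IC in every experiment, with the largest gain in experiment 3. In experiment 3 the sum of 11 MHC class II and dendritic cell markers was also higher (2743 on control and 4402 on IC), while that of 6 platelet markers was lower (2138 and 1556). Markers of eosinophils, basophils and mast cells (13 genes) summed to between 3789 and 11523, with the highest sums in experiment 3 on both surfaces. The 15 measured monocyte and macrophage markers summed to 2562, 4726 and 3393 on control and to 2858, 4023 and 4027 on IC in experiments 1, 2 and 3. Their sum was thus higher on IC in experiments 1 and 3 and lower in experiment 2. The 14 neutrophil identity markers summed to between 60589 and 71831. The part of these other cells in the results was not tested, and in bulk RNA fewer cells of a type and less RNA per cell cannot be told apart.

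Of 28944 transcript clusters tested with limma, 0 passed an adjusted p of 0.05 for IC against control in Card9-/- cells (0% in either direction), and the smallest adjusted p was 0.544. At an unadjusted p under 0.05 there were 540 higher clusters (1.87%) and 332 lower clusters (1.15%). Everything below therefore describes values whose differences did not pass the test, and directions are given as counts over the 3 experiments. In all 3 experiments 3334 clusters (11.5%) had a higher and 4241 (14.7%) a lower signal on IC. Of these consistent clusters 44.0% were higher, a share that became 56.7% (4345 higher and 3312 lower) when each array was centred on its median, so that the balance of higher and lower clusters depended on the scaling. In wild-type cells 5431 clusters (18.8%) were higher and 3552 (12.3%) lower in all 3 experiments. Of the clusters higher in all Card9-/- experiments 898 were also higher in all wild-type experiments, which is 26.9% of the former and 16.5% of the latter. The shared lower clusters numbered 1048, or 24.7% and 29.5%.

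Consistent differences of some size were few and mostly upward in Card9-/- cells. A log2 difference of at least 0.25 in the same direction in every experiment was found for 139 higher and 42 lower clusters in Card9-/- cells and for 271 and 276 in wild-type cells. At 0.5 there were 14 higher and 0 lower clusters in Card9-/- cells, against 38 and 19.

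The 3 experiments shared little of the response across the array. The correlation of the log2 differences across all clusters, which are not independent replicates and share arrays, was 0.144 between experiments 1 and 2, 0.0426 between experiments 1 and 3 and 0.0123 between experiments 2 and 3. Among the 14472 clusters above the median signal it was 0.318, 0.0373 and 0.0594. Experiment 1 and experiment 2 were thus the most alike, and experiment 3 was set apart by a larger spread. The SD of the log2 differences over clusters was 0.219, 0.173 and 0.343 in experiments 1, 2 and 3.

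**Figure D1:**
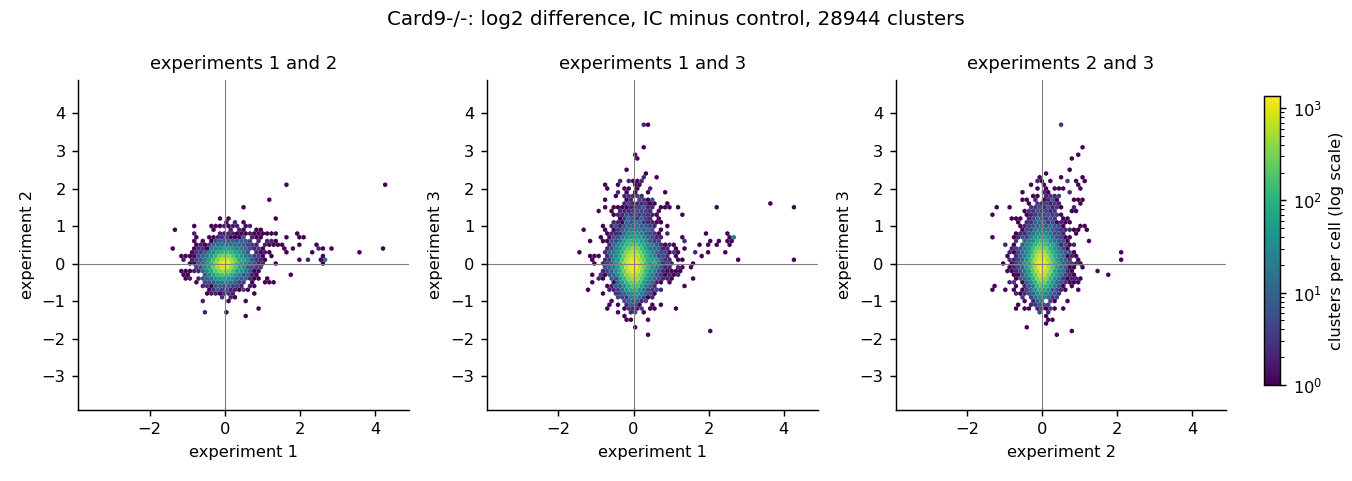
Log2 signal on IC minus control in Card9-/- neutrophils for 28944 transcript clusters, each panel setting 1 experiment (horizontal axis) against another (vertical axis), with colour for the number of clusters per cell on a log scale. The cloud is tallest along experiment 3 (SD 0.343) and the correlation is highest, 0.144, between experiments 1 and 2.

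A difference of over 2-fold was measured for 72 higher and 10 lower clusters in experiment 1, 13 and 7 in experiment 2 and 315 and 66 in experiment 3. Of the higher clusters, 72.2% in experiment 1, 61.5% in experiment 2 and 35.6% in experiment 3 were also higher in the other experiments. The lower clusters kept their direction less often, with 20%, 0% and 24.2% also lower in the other experiments. The largest gains of experiment 1 were those of Clec4n (4.31), Cd14 (2.51), Cxcl2 (2.47), Acod1 (2.20) and Egln3 (2.07), of which Egln3, an oxygen-sensing prolyl hydroxylase gene outside the rule for named genes, was at −1.83 in experiment 3. Those of experiment 3 were led by small nucleolar RNAs, which guide the modification of ribosomal RNA. Of the 315 clusters, 147 name no gene and 32 are small nucleolar RNAs, of 60 such clusters on the array. Their median log2 difference was 0.04, 0.10 and 1.17 in experiments 1, 2 and 3 in Card9-/- cells and −0.03, 0.09 and 0.54 in wild-type cells, so that experiment 3 held the high values in both genotypes.

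The genes with the steadiest response were taken next. They are the 15 genes in each direction with the largest difference in the experiment where it was smallest, among genes with the same direction in all 3 experiments and a mean signal over the 12 arrays above the median of all clusters. These values chose the genes, so they are given as a description. The last gene taken among the higher ones, Egr1, had a smallest difference of 0.420 and the next gene, Maff, of 0.417. Among the lower ones these were −0.253 for Camk1d and −0.250 for Cptp.

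The higher genes were headed by Rhov, Cass4, which encodes a scaffold protein of the Cas family at sites of cell adhesion, and Ciart, which encodes a repressor of the circadian clock. To show the DNA ahead of these genes, the 250 bases before the annotated start of each are given, with those of Cxcl2 and Csf1, which encode the chemokine MIP-2 and the growth factor M-CSF and are the inducible mediators described further on. The sequences are those of RefSeq on GRCm38.p6, 5′ to 3′ on the strand of the gene, and capitals mark matches on either strand to 4 motifs: an NF-κB motif (GGG, any 2 bases, then TTTCC), an AP-1 motif (TGANTCA), a cyclic AMP response element (TGACGTCA) and an E-box (CACGTG). Rhov lies at chr2:119271227-119271476 on the minus strand, Cass4 at chr2:172393394-172393643 on the plus strand, Ciart at chr3:95882229-95882478 on the minus strand, Cxcl2 at chr5:90903649-90903898 on the plus strand and Csf1 at chr3:107760470-107760719 on the minus strand.
Rhov: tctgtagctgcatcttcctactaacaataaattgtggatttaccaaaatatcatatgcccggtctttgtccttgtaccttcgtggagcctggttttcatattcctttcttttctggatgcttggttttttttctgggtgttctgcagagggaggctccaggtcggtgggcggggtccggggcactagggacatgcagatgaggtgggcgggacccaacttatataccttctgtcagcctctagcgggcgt
Cass4: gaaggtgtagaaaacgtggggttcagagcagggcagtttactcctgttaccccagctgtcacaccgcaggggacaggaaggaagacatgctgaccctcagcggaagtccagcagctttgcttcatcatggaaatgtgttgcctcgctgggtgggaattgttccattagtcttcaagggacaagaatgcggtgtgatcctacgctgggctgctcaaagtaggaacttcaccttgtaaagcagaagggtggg
Ciart: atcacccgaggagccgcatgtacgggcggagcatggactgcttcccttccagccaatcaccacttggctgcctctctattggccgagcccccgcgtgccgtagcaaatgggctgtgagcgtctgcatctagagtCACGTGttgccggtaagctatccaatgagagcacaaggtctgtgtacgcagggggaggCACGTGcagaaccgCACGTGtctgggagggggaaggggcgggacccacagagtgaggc
Cxcl2: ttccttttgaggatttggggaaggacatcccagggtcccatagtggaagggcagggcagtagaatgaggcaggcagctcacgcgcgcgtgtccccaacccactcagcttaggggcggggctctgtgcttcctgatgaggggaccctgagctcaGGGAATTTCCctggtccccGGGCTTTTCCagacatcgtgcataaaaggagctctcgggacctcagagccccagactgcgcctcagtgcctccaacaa
Csf1: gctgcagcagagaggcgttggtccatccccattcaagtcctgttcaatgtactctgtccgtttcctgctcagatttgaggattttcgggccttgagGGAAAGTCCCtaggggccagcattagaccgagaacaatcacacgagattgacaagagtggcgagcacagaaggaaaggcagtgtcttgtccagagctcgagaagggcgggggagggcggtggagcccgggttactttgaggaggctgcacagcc

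In these windows Rhov and Cass4 held none of the 4 motifs. Ciart held 3 E-boxes, at 116 to 111, 58 to 53 and 44 to 39 bases before the start. Cxcl2 held 2 NF-κB motifs, at 97 to 88 and 78 to 69 bases before the start, and Csf1 held 1, at 154 to 145. No match overlapped another. Of 32851 promoters of the same length in the RefSeq table, 1.41% held the NF-κB motif, 6.75% the AP-1 motif, 1.55% the cyclic AMP response element and 6.02% the E-box. Of the 15 higher genes 10 had a promoter in the table, and 2 of them held the NF-κB motif (Cxcl2 and Dusp5), 1 the AP-1 motif (Gpr35), 0 the cyclic AMP response element and 1 the E-box (Ciart). Of the 15 lower genes 12 had one, with 0, 1 (Prxl2a), 1 (Mcam) and 3 (Arhgef4, Fbxo10 and Prxl2a) in the same order. A match describes the letters of the window and is not a site of binding.

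The log2 signal of Rhov in experiments 1, 2 and 3 was 5.83, 6.11 and 5.32 on the control surface and 7.02, 6.93 and 6.76 on IC. All 3 IC arrays lay above all 3 control arrays, and the mean log2 difference was 1.15 (standard error 0.19, n = 3 experiments, limma adjusted p = 0.544), or 2.22-fold. In wild-type cells it was 1.43, and the difference between the responses of the genotypes was −0.28, with a 95% confidence interval from −0.85 to 0.29. It became −0.03 without experiment 2 and −0.54 without experiment 3.

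Cass4 had signals of 6.12, 6.30 and 6.77 on control and of 6.82, 7.11 and 7.64 on IC. Again the groups did not overlap, and the 3 differences were close together (0.70, 0.81 and 0.86), with a mean of 0.79 (standard error 0.11, n = 3 experiments, limma adjusted p = 0.544). The wild-type mean was 0.71, and the difference between the responses was 0.08 (95% interval −0.27 to 0.44). Cass4 and Rhov shared the smallest adjusted p of the comparison with a cluster that names no gene.

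Ciart was read at 6.02, 5.37 and 7.39 on control and at 7.36, 6.60 and 7.97 on IC. The level in experiment 3 was the highest on both surfaces, so that the groups overlapped while each pair differed in the same direction (1.34, 1.23 and 0.58; mean 1.05, standard error 0.20, n = 3 experiments, limma adjusted p = 1.00). A further cluster of Ciart differed by 0.55, 0.67 and 0.87. In wild-type cells the mean was 1.11.

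Receptors and secreted proteins among the steady genes included Ccrl2, which encodes an atypical receptor of the chemoattractant chemerin, Gpr35, a G protein-coupled receptor, Orm1, the acute-phase protein orosomucoid, and the chemokine Cxcl2. Ccrl2 was at 6.40, 8.60 and 8.81 on control and at 7.71, 9.12 and 10.16 on IC (mean difference 1.06). Gpr35 was at 5.85, 6.35 and 6.53 on control and at 6.95, 6.99 and 7.0 on IC (0.74), so that its IC arrays were nearly level and all above the controls. Orm1 differed by 0.60, 0.53 and 0.55, the most even of these genes. Cxcl2 varied most: its control signal was 6.15, 9.24 and 11.85 and its IC signal 8.62, 9.72 and 12.46, and the mean difference of 1.18 became 0.54 without experiment 1. The control level of Cxcl2 thus spanned more between experiments than any of its responses.

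Kinases, phosphatases and transcription factors formed another class. Plk3, a stress-responsive Polo-like kinase, was at 8.43, 8.19 and 10.03 on control and at 9.13, 8.76 and 11.17 on IC (mean difference 0.81). Dusp5, a nuclear phosphatase that inactivates ERK, was at 7.40, 7.79 and 8.28 on control and at 8.32, 8.53 and 8.79 on IC (0.72). Klf10, an early transcription factor gene, differed by 0.50, 0.55 and 0.55. Egr1, an early growth response factor, was at 6.59, 6.48 and 8.50 on control and at 7.01, 6.98 and 9.40 on IC (0.61). In each of these 4 genes every pair differed upward, and the control level of all 4 was highest in experiment 3, narrowly so for Klf10 (8.03 and 8.05 in experiments 2 and 3).

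The remaining higher genes were Stfa2 (0.59), which encodes a stefin, an inhibitor of cysteine proteases, Slf2 (0.55), which encodes a partner of the SMC5-SMC6 complex, C130050O18Rik (0.55) and an immunoglobulin κ variable segment (transcript cluster 10545180; 0.80). Stfa2 and this segment belong to families of similar genes whose probes may read relatives. The segment is a gene of B cells, whose marker sum given above was higher on IC in every experiment, with the largest gain in experiment 3. The segment was also higher in every experiment, with its largest difference in experiment 1 (1.38, against 0.47 and 0.56). Without experiment 1 its mean was 0.51. The part of B cells in these values was not tested. A further cluster of Slf2 differed by 0.34 on average.

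**Figure D2:**
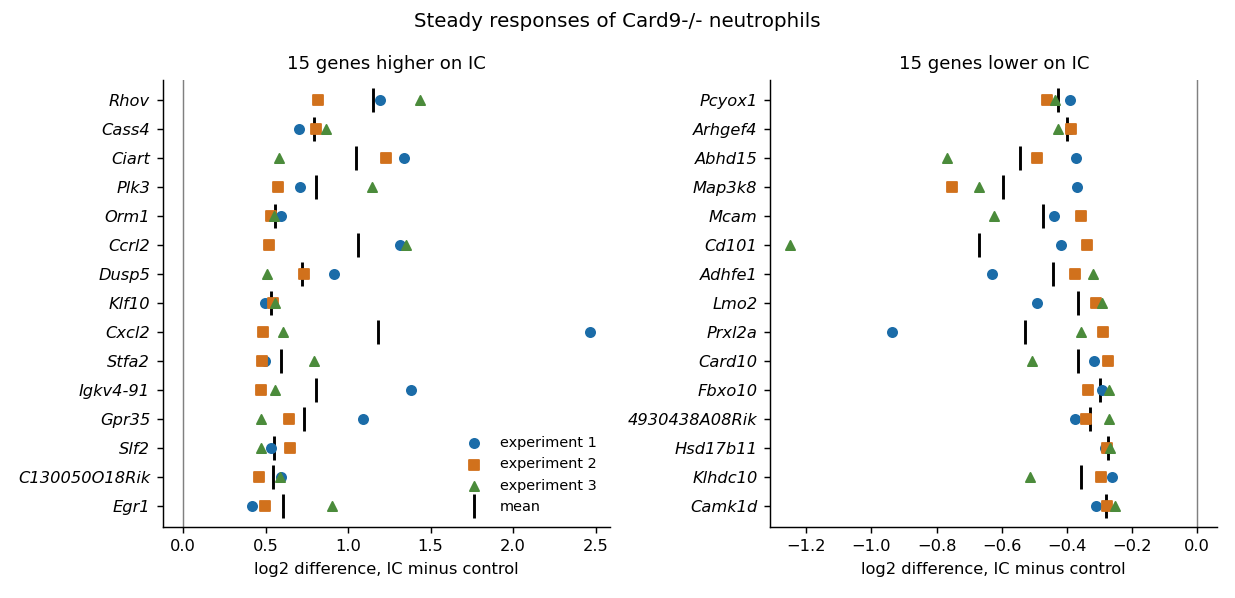
Log2 signal on IC minus control in Card9-/- neutrophils (horizontal axis) for the 15 steadiest higher genes (left) and lower genes (right). Symbols are experiments and vertical bars are means. All symbols lie on 1 side of 0 by the choice of genes, the means are 0.53 to 1.18 on the left and −0.67 to −0.28 on the right, and Cxcl2 has the widest spread.

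**Figure D3:**
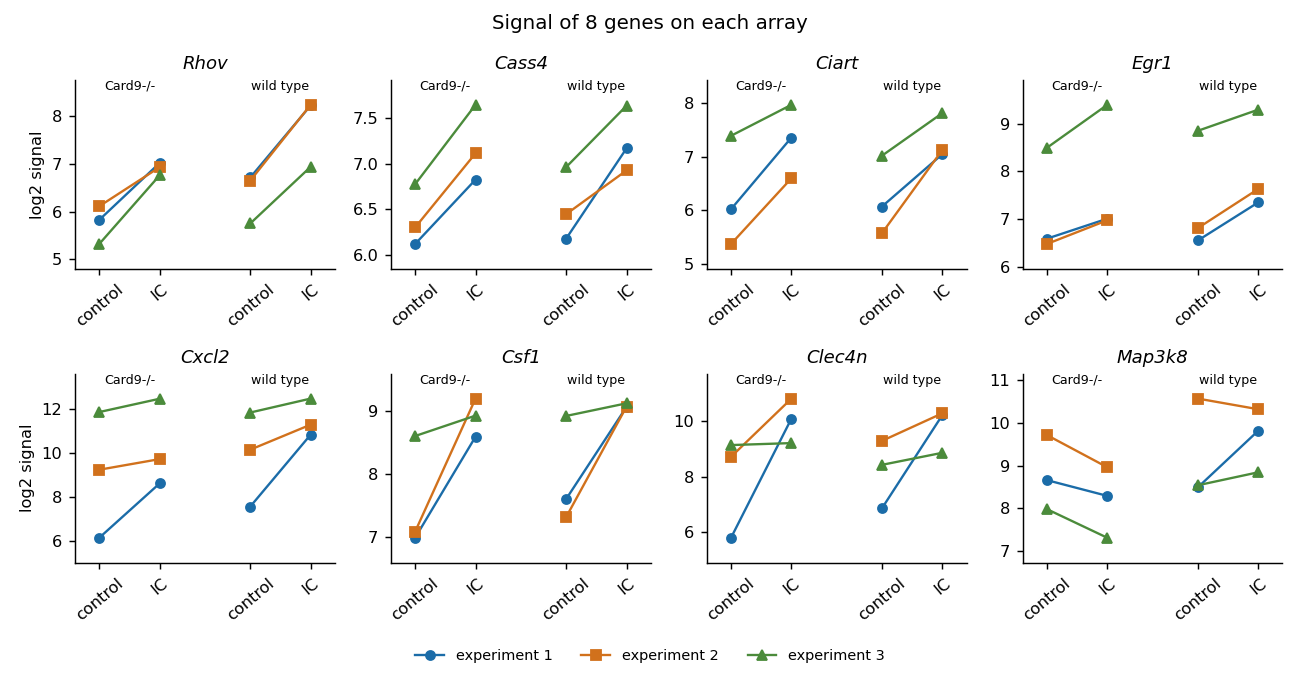
Log2 signal (vertical axis) of 8 genes on each of the 12 arrays, with lines joining the control and IC arrays of an experiment within a genotype. Rhov and Cass4 are higher on IC in every experiment in both genotypes, Clec4n and Csf1 differ least in experiment 3, and the Map3k8 lines slope down in all 3 Card9-/- experiments.

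The lower genes had smaller differences, with means from −0.67 to −0.28. Pcyox1, which encodes a prenylcysteine oxidase, was at 8.26, 8.76 and 7.84 on control and at 7.87, 8.30 and 7.41 on IC, a mean difference of −0.43 (standard error 0.10, n = 3 experiments, limma adjusted p = 1.00). The 3 pairs differed by nearly the same amount, although the groups overlapped because experiment 2 was higher throughout. Cd101, which encodes an immunoglobulin-superfamily protein of mature neutrophils, was at 10.15, 9.39 and 7.74 on control and at 9.74, 9.05 and 6.49 on IC. Its mean of −0.67 was largest in size among these genes and became −0.38 without experiment 3. Mcam, which encodes the adhesion molecule CD146, differed by −0.44, −0.36 and −0.62.

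Signalling genes made up 4 of the lower ones. Map3k8 encodes the kinase TPL2, which is held by an NF-κB precursor protein and activates the MEK-ERK pathway. It was at 8.66, 9.71 and 7.98 on control and at 8.29, 8.96 and 7.32 on IC, a mean difference of −0.60 (standard error 0.23). Card10 encodes a scaffold of the same CARD family as CARD9, and it differed by −0.32, −0.27 and −0.51. Arhgef4 differed by −0.39, −0.39 and −0.43, and Camk1d, a calmodulin-dependent kinase, by −0.31, −0.28 and −0.25. These 4 genes thus had lower values in every pair, by amounts that for Arhgef4 and Camk1d hardly varied.

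The other lower genes were Abhd15 (−0.54), Prxl2a (−0.53), a peroxiredoxin-like protein whose mean was −0.32 without experiment 1, Adhfe1 (−0.44), a mitochondrial dehydrogenase, Lmo2 (−0.36), a transcriptional cofactor of blood cell formation, Klhdc10 (−0.36), 4930438A08Rik (−0.33), Fbxo10 (−0.30), a subunit of a ubiquitin ligase, and Hsd17b11 (−0.28), a short-chain dehydrogenase.

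Most of the steady genes had the same direction in wild-type cells, whose differences took no part in the choice. The wild-type arrays entered it through the mean signal alone, and over the 6 Card9-/- arrays 15 of the 15 higher and 14 of the 15 lower genes were above the same median. The exception was Adhfe1 (mean 5.56 over these arrays, against a median of 5.65). Of the 15 higher genes 13 were also higher on IC in all 3 wild-type experiments, beside 18.8% of all clusters. Of the 15 lower genes 12 were also lower, beside 12.3%. The genes without the same direction were the immunoglobulin segment and Slf2 among the higher genes and Map3k8, Adhfe1 and Klhdc10 among the lower ones. The mean response was larger in Card9-/- than in wild-type cells for 7 of the 15 higher genes, including Plk3 (0.81 and 0.54), Orm1 (0.56 and 0.35) and Stfa2 (0.59 and 0.28). It was smaller for Rhov, Ccrl2 (1.06 and 1.39), Dusp5 (0.72 and 0.89) and Cxcl2 (1.18 and 1.68). The genes were chosen for the size of their Card9-/- differences, which favours Card9-/- cells in such a comparison of means. The test of the difference between the genotypes passed for 0 of these genes. At an unadjusted p under 0.05 there were 0 of the higher and 2 of the lower genes, Map3k8 and Adhfe1. The interval of the difference was wide even for genes with like means, such as Ciart (−0.68 to 0.55) and Dusp5 (−0.84 to 0.50), so that equal responses were not shown either.

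**Figure D4:**
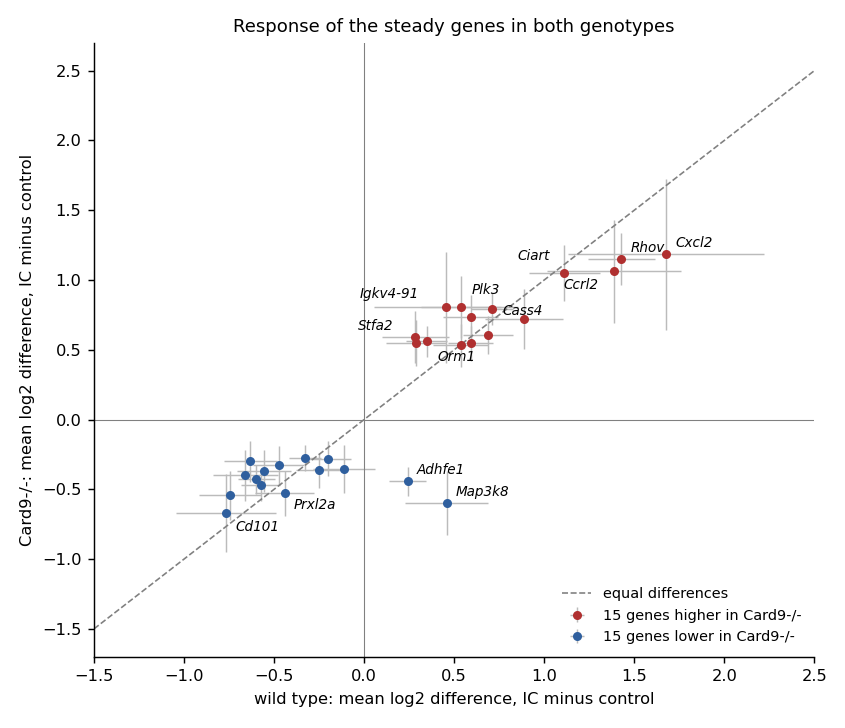
Mean of 3 log2 differences, IC minus control, in wild-type cells (horizontal axis) and Card9-/- cells (vertical axis) for the 30 steady genes, with standard errors of the limma fit as bars and a dashed line for equal differences. The higher genes spread along the line, and Adhfe1 and Map3k8 stand right of 0 and below it.

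Chemokine and cytokine genes were read as groups. Of 20 measured chemokine genes 4 were higher in all 3 Card9-/- experiments and 0 were lower (20.0%, beside 11.5% of all clusters), with a median log2 difference of 0.01. Besides Cxcl2 they included Ccl4, which encodes MIP-1β (1.95, 0.74 and 0.27). Ccl3, which encodes MIP-1α, differed by 1.32, −0.03 and 0.15 and had high control signals (10.57, 12.60 and 12.77). Cxcl1, which encodes KC, had nearly level signals of 6.32, 6.55 and 6.23 on control and 6.49, 6.19 and 6.46 on IC, whereas its wild-type differences were 0.77, 0.59 and 1.24. The difference between the genotypes was −0.86 for Cxcl1 (95% interval −1.37 to −0.34, unadjusted p = 0.0038, adjusted p = 0.999). Of the 20 chemokine genes 8 were higher and 1 lower in all wild-type experiments, beside 18.8% and 12.3% of all clusters. For 7 the response was below that of wild-type cells in all 3 experiments, beside 16.6% of all clusters. It was above for 0, beside 12.4%.

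Of 28 cytokine and growth factor genes 6 were higher (21.4%, beside 11.5% of all clusters) and 3 lower (10.7%, beside 14.7%) in all experiments, with a median of 0.04. In wild-type cells 15 were higher and 0 lower in all experiments, beside 18.8% and 12.3% of all clusters. For 11 of the 28 the response was below that of wild-type cells in all 3 experiments, beside 16.6% of all clusters. It was above for 2, beside 12.4%. Csf1 had the largest mean of this list, at 6.99, 7.09 and 8.61 on control and at 8.60, 9.20 and 8.93 on IC (mean difference 1.35, standard error 0.32, n = 3 experiments, limma adjusted p = 1.00). Its level on IC was similar in all experiments, and its difference was smallest in experiment 3, where the control was highest. The wild-type mean was 1.14, and the difference between the responses was 0.21 (95% interval −0.79 to 1.21). Csf1 was named partly because an earlier analysis of these data gave it a larger mean response in Card9-/- cells, so this comparison is a description. Il23a, a subunit of IL-23, differed by 0.39, 0.42 and 1.62, and Osm, which encodes oncostatin M, by 0.83, 0.23 and 0.03. Il1b was at 10.45, 12.21 and 12.32 on control and at 11.43, 12.07 and 12.66 on IC, so that its direction was not the same throughout.

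Outside the rule that chose the named genes, and picked after their values were seen, 2 genes below the median signal had large consistent differences. Gzmb, which encodes granzyme B, was at 4.98, 5.21 and 6.02 on control and at 5.85, 6.13 and 7.47 on IC, a mean difference of 1.08 against 0.29 in wild-type cells (difference 0.79, 95% interval −0.27 to 1.85). This difference became 0.37 without experiment 3. Il6 differed by 0.56, 0.46 and 2.30. Of the 11 measured T and NK cell markers, cells that also make granzyme B, the summed signal in experiments 1, 2 and 3 was 794, 638 and 648 on control and 732, 665 and 812 on IC. The sum was higher on IC in experiments 2 and 3, with the largest gain in experiment 3, where Gzmb also differed most, and its part in the value of Gzmb was not tested.

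Receptor genes gave a mixed picture. Of 12 C-type lectin receptor genes 2 were higher (16.7%) and 3 lower (25.0%) in all Card9-/- experiments, with a median of −0.06. Of 18 genes of Toll-like receptors and CD14 4 were higher (22.2%) and 2 lower (11.1%), with a median of 0.05. All clusters had 11.5% higher and 14.7% lower. Clec4n, which encodes the C-type lectin Dectin-2, had the largest mean response of all named genes, at 5.80, 8.72 and 9.15 on control and at 10.10, 10.83 and 9.22 on IC. The size of its response followed the order of its control levels in reverse (4.31, 2.10 and 0.07), an order that is favoured because the control signal is part of the difference. In wild-type cells Clec4n was at 6.86, 9.30 and 8.43 on control and differed by 3.37, 1.00 and 0.44, so that this order did not hold. Clec4n and Cd14 were named partly because an earlier analysis of these data gave them larger mean responses in Card9-/- than in wild-type cells. Cd14, a co-receptor of Toll-like receptor 4, was at 7.83, 10.58 and 10.97 on control and at 10.34, 10.97 and 11.74 on IC. Fcgr4, which encodes the Fcγ receptor IV that binds IgG complexes, differed by 0.23, 0.28 and 0.57 (mean 0.36) in Card9-/- cells and by 0.34, 0.28 and 0.43 in wild-type cells. It was the 1 gene higher in all experiments among 16 genes of Fc receptors and proximal kinases, of which 4 were lower. Of 10 genes of partners of CARD9, 0 were higher and 2 lower in all experiments, beside 11.5% and 14.7% of all clusters, so that the share of lower genes (20.0%) was near the background. Bcl10 was at 0.16, −0.05 and −0.63.

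Early transcription factors were the list most often higher. Of 32 measured genes of AP-1 and other early factors, 15 were higher on IC in all 3 Card9-/- experiments (46.9%, beside 11.5% of all clusters), 0 were lower, and 7 had an unadjusted p under 0.05. The median log2 difference was 0.20, with 0.25, 0.06 and 0.28 in experiments 1, 2 and 3, and 0.35 in wild-type cells. Fos, Fosb, Fosl1 and Jund, subunits of AP-1 that were named after their values were seen, were among the 15, with Fosb at 0.34, 0.27 and 1.26 and Fos at 0.25, 0.32 and 0.77. Csrnp1, an axin-induced nuclear protein, differed by 0.57, 0.06 and 0.77. Cebpb, a factor of myeloid cells named on the same terms, differed by 0.94, 0.05 and 1.01. The list median was lowest in experiment 2.

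Feedback regulators of the MAP kinases were also more often higher than clusters in general. Of 24 genes 8 were higher and 1 lower in all Card9-/- experiments (33.3% and 4.17%, beside 11.5% and 14.7% of all clusters), with a median of 0.17. In wild-type cells 11 were higher and 3 lower, beside 18.8% and 12.3% of all clusters, with a median of 0.26. Besides Dusp5, the ERK phosphatase gene Dusp6 differed by 0.82, 0.39 and 0.34 in Card9-/- cells. Dusp1, which acts on p38 and JNK, differed by 0.95, 0.78 and −0.04. In wild-type cells Dusp6 differed by 0.85, 0.76 and −0.13 and Dusp1 by 1.13, 0.57 and −0.07, so that both genotypes lacked the higher value of Dusp1 in experiment 3.

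The NF-κB system stood on the other side. Of 22 measured NF-κB genes (subunits, inhibitors and regulators) 1 was higher (4.55%) and 6 were lower (27.3%, beside 14.7% of all clusters) in all Card9-/- experiments, and the median was −0.11, with 0.03, −0.33 and −0.08 in experiments 1, 2 and 3. In wild-type cells the median was 0.46, with 1.20, 0.17 and 0.04. The response was below that of wild-type cells in all 3 experiments for 14 of the 22 genes, beside 16.6% of all clusters. Nfkbia and Tnfaip3 are named here after their values were seen. Nfkbia, which encodes IκBα, differed by −0.12, −0.82 and 0.31 in Card9-/- cells and by 1.51, 0.03 and 0.47 in wild-type cells. Tnfaip3, which encodes the inhibitor A20, differed by −0.03, −0.94 and 0.16 and by 2.40, 0.09 and 0.56. Tnip1, a partner of A20, differed by −0.01, −0.55 and −0.81. Experiment 2 thus held low Card9-/- values for many of these genes, and experiment 1 held the high wild-type values. None of these genes passed the test of the difference between the genotypes.

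**Figure D5:**
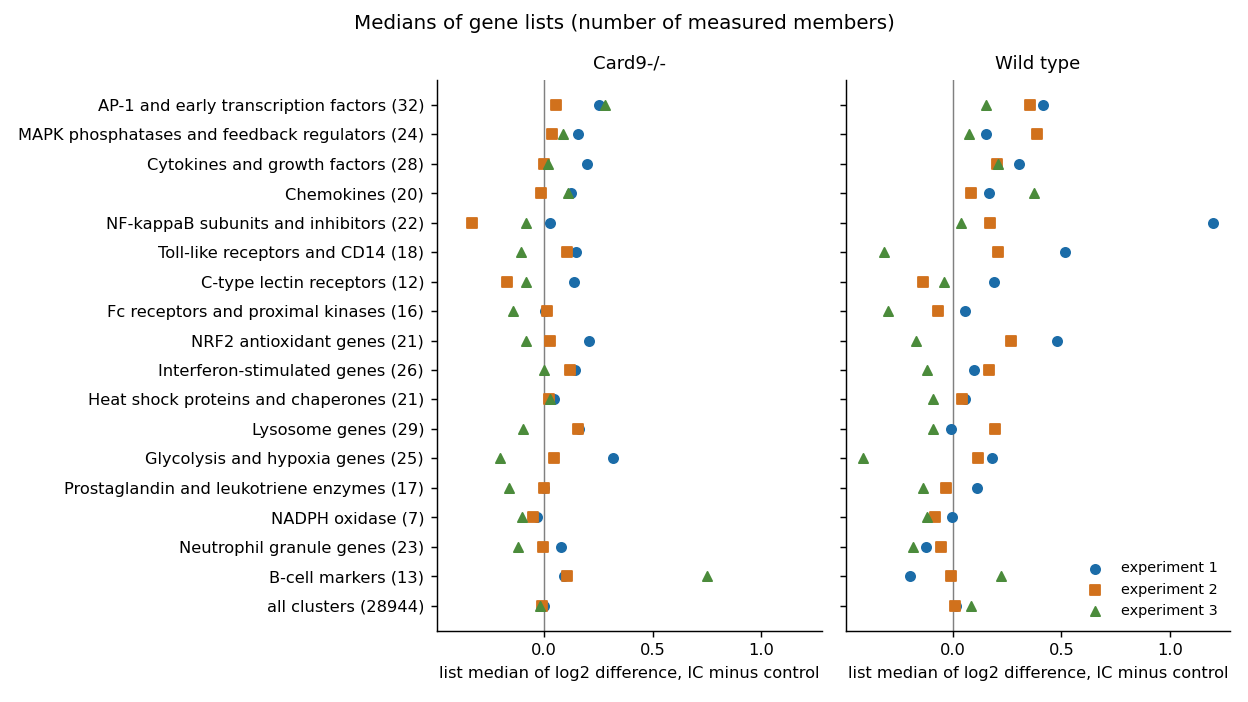
Median of the log2 differences, IC minus control, over the measured members of the gene lists on the vertical axis (number in brackets) in each experiment, in Card9-/- cells (left) and wild-type cells (right). In Card9-/- cells the AP-1 list lies above 0 in all 3 experiments and the B-cell list is highest in experiment 3 (0.75). The NF-κB list is at −0.33 in experiment 2, while its wild-type median is 1.20 in experiment 1.

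The medians of the stress and metabolic lists lay close to 0, and the counts in this group stand beside 11.5% higher and 14.7% lower among all clusters. Interferon-stimulated genes had a median of 0.12, with 7 of 26 higher (26.9%) and 2 lower (7.69%) in all experiments, among them Irf7 (0.44, 0.30 and 0.29) and Rtp4 (0.87, 0.61 and 0.32). Heat shock genes had 7 of 21 higher (33.3%) and 2 lower (9.52%), and antioxidant genes of the NRF2 pathway 6 of 21 (28.6%) and 2, led by Osgin1 (0.32, 0.46 and 0.34). The heme oxygenase gene Hmox1 and the cystine transporter gene Slc7a11 had their largest differences in experiment 1 (1.55 and 1.61) and were at −0.14 and −0.05 in experiment 3. Sterol genes had 6 of 22 higher (27.3%) and 2 lower (9.09%). Of 29 lysosome genes 5 were higher (17.2%) and 3 lower (10.3%), close to the shares of all clusters. The protease inhibitor gene Cstb had the smallest p of them, with differences of 0.72, 0.67 and 0.40 (mean 0.60, unadjusted p = 0.00017, limma adjusted p = 1.00). Glycolysis and hypoxia genes had 0 higher and 2 lower (8.0%) of 25, and their median moved from 0.32 in experiment 1 to 0.04 and −0.20 in the others. In wild-type cells these medians were 0.18, 0.12 and −0.41.

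Genes of effector functions followed. Of 7 NADPH oxidase genes 0 were higher and 3 were lower in all Card9-/- experiments (42.9%, beside 14.7% of all clusters), by small amounts (median −0.07). Ncf1, which encodes p47phox, was at −0.05, −0.18 and −0.13 and Cybb, which encodes the catalytic subunit, at −0.03, −0.05 and −0.28. In wild-type cells 1 of the 7 was higher and 4 were lower, beside 18.8% and 12.3% of all clusters, with a median of −0.09. Of 17 genes of prostaglandin and leukotriene synthesis 2 were higher (11.8%) and 3 lower (17.6%) in Card9-/- cells, near the shares of all clusters. Ptgs2, which encodes cyclooxygenase-2, differed by 1.85, 0.39 and 0.20. The leukotriene genes stayed close to their controls: Alox5, 5-lipoxygenase, differed by −0.12, 0.02 and −0.07 (mean −0.06, 95% interval −0.30 to 0.18). Alox5ap had a mean of −0.04 (−0.28 to 0.19). Lta4h had signals of 10.66, 11.11 and 10.78 on control and of 10.76, 11.17 and 10.60 on IC.

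The counts for granule genes stood apart from those of wild-type cells, with small differences, none of which passed the test between the genotypes. Of 23 measured genes 6 were higher (26.1%) and 2 lower (8.70%) in all Card9-/- experiments (median 0.02). Among all clusters these shares were 11.5% and 14.7%. In wild-type cells 0 were higher and 10 lower (median −0.12), beside 18.8% and 12.3% of all clusters. The response was above that of wild-type cells in all 3 experiments for 15 of the 23, beside 12.4% of all clusters, and below it for 0. S100a9, a calcium-binding alarmin, differed by 0.20, 0.03 and 0.41 in Card9-/- and by −0.17, 0.02 and 0.22 in wild-type cells. Ngp, neutrophilic granule protein, differed by 0.18, 0.06 and 0.27 and by −0.03, −0.06 and 0.03. The signals of S100a9 (12.3 to 12.7) and Ngp (12.5 to 12.9) on the Card9-/- arrays were among the highest read, and whether their probes were saturated was not tested. The 14 neutrophil identity markers, some of them in both lists, were above wild-type responses in all experiments for 12 and below for 0.

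The test of the difference between the genotypes' responses passed for 0 of 28944 clusters (0%; smallest adjusted p 0.249), with 299 above (1.03%) and 767 below (2.65%) at an unadjusted p under 0.05. In all 3 experiments 4806 clusters (16.6%) had a lower and 3594 (12.4%) a higher response in Card9-/- cells. The largest steady shortfalls, by the rule on direction and signal used above for the steady genes and here applied to the difference, were those of Il1a, Saa3, Tnf, Cxcl10 and Nfkbie. Il1a, which encodes IL-1α, was at 3.21, 5.15 and 4.44 on control and at 3.81, 5.13 and 5.79 on IC in Card9-/- cells. It differed by 2.84, 1.36 and 3.06 in wild-type cells (difference −1.78, 95% interval −2.85 to −0.70). Its mean signal was 4.59 over the Card9-/- arrays, below the median of all clusters, so that it met the rule on signal only through the wild-type arrays, where it is higher. Saa3, serum amyloid A3, was at 4.54, 8.31 and 5.61 on control and at 4.30, 7.96 and 5.73 on IC (−1.89, −2.86 to −0.92). Tnf was at 9.06, 11.02 and 9.89 on control and at 8.90, 10.28 and 9.81 on IC, below its control in each pair, whereas its wild-type differences were 2.45, 0.14 and 0.99. Cxcl10, an interferon-inducible chemokine, differed by 0.51, −0.68 and 0.07 in Card9-/- and by 1.88, 0.08 and 1.06 in wild-type cells.

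Larger responses in Card9-/- than in wild-type cells were led by Snord73b, a small nucleolar RNA (0.25, 1.09 and 3.14 against −0.42, −0.36 and 0.49), Cd93, which encodes a receptor of myeloid cells (0.48, 1.48 and −0.14 against −0.10, 0.97 and −0.66), the pseudogene Pisd-ps2, H2-T24, a nonclassical MHC class I gene, and Rab3d, a GTPase of secretory granules. For H2-T24 and Rab3d the Card9-/- values were near 0 or below it, and the wild-type values were lower still (Rab3d −0.11, −0.04 and −0.12 against −0.57, −0.46 and −0.73). In all, 626 clusters (2.16%) were lower in all Card9-/- and higher in all wild-type experiments, and 180 (0.622%) had the reverse pattern.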

How the data were processed

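The deposited values are log2 signals of transcript clusters, already normalized by the authors (method not given in the sources used here). Medians of the 12 arrays were 5.27 to 5.93. The number of arrays limits the precision. Of 35556 rows, 6612 control rows were left out and 28944 clusters were tested, of which 21789 name 1 gene in the platform annotation. Values were used as deposited, with no filter on signal.

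A single limma model (version 3.58.1 in R 4.3.3; lmFit, then eBayes) held the 4 groups and a term for each experiment (degrees of freedom: residual 6, prior 5.4). The term takes out the level of each experiment. Standard errors, intervals and p values thus rest on a moderated spread pooled over both genotypes, and not on the 3 Card9-/- pairs of a gene alone. Two-sided p values of each comparison were adjusted over all clusters (Benjamini-Hochberg; threshold 0.05). The labels give each experiment number as a time point shared by all 4 groups. In a check of this pairing, deviations from the group means correlated across clusters at 0.671 to 0.867 for the same number and at −0.727 to 0.355 for different numbers. The 31 function lists and 8 marker lists read each gene from its cluster with the highest mean signal, and 690 of 755 listed genes were measured. Genes were named by 4 rules. The first took up to 15 in each direction as described in the text. The second took the 3 members of each function list with the smallest p. The third took up to 5 in each direction of the difference between the genotypes. The last took genes that the study measured or names, with Clec4n, Csf1 and Cd14 from its heat map. An earlier analysis of these data had given Clec4n, Csf1 and Cd14 a larger mean response in Card9-/- than in wild-type cells. The members and lists were chosen with earlier results of these data known, and lists are described by counts and medians without a test. The result of 1 function list is not reported here. Columns of no sample numbered 0. The fit was tested on simulated data. Python 3.11.15, numpy 2.4.6, pandas 2.3.3 and matplotlib 3.10.9 were used for summaries and figures. The alternatives were no block, a random block, quantile normalization, median centring, a signal filter, limma-trend, a robust eBayes, a factorial test without moderation, identical clusters tested once, the Card9-/- arrays alone and leaving out each experiment.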

Additional observations from a re-analysis of the deposited data

Results flagged for a closer look

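In 4 of the named genes every Card9-/- experiment differed in one direction between the surfaces and every wild-type experiment in the other. Tnf, Nfkbie and Pisd-ps2 were taken by the rule on the difference between the genotypes, and Adhfe1 as a steady lower gene. Values used in that choice are repeated here, so they and their intervals are a description. For Tnf the difference between the responses, Card9-/- minus wild type, was −1.51 (95% interval −2.49 to −0.53) and became −0.97 without experiment 1. For Nfkbie, which encodes IκBε, it was −1.19 (−2.33 to −0.05), from Card9-/- values of −0.06, −0.44 and −0.05 and wild-type values of 2.01, 0.30 and 0.72, and it became −0.75 without experiment 1. For Adhfe1 it was −0.68 (−1.0 to −0.36), with −0.63, −0.37 and −0.32 against 0.42, 0.11 and 0.20. For the pseudogene Pisd-ps2 it was 0.61 (0.25 to 0.96), with 0.33, 0.07 and 0.20 against −0.18, −0.61 and −0.43. The limma test of the difference itself did not pass for any of the 4 (adjusted p = 0.999 for each). Among all clusters, which were not chosen in this way, 2.16% were lower in all Card9-/- and higher in all wild-type experiments. The reverse pattern was found for 0.622%.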

How the results depend on the processing

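The number of clusters past the threshold was 0 for IC against control in Card9-/- cells and 0 for the difference between the genotypes under each alternative run, including the fit with no replicate block (0 and 0), so that the block changed no call. The correlation between the responses of experiments 1 and 2 moved from 0.144 to 0.318 in clusters above the median signal. The values of some named genes turned sign. When each experiment was left out in turn, the Card9-/- response ranged from −0.338 to 0.0554 for Bcl10, from −0.237 to 0.0171 for H2-T24, from −0.303 to 0.290 for Cxcl10, from −0.0604 to 0.0452 for Card9, from −0.0943 to 0.200 for Cxcl1, from −0.0955 to 0.0164 for Alox5ap, from −0.0574 to 0.0858 for Lta4h, from −0.470 to 0.0927 for Nfkbia and from −0.486 to 0.0659 for Tnfaip3. The difference between the genotypes ranged from −0.0431 to 0.264 for Cass4 and from −0.273 to 0.0712 for Ciart, for which median centring gave 0.0138. Quantile normalization turned the response of Card9 to 0.0017 and of Cxcl1 to −0.0111, and median centring turned that of Card9 to 0.0030 and of Lta4h to 0.0183. The cause of these turns was not tested. The median turned sign without experiment 1, 2 or 3 in 8, 5 and 11 of 39 lists.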
